A study of Mus musculus with 6 samples.

Results

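Rab genes encode the small GTPases of membrane traffic, and their transcript levels were examined in mouse primary cultured oligodendrocyte precursor cells (mOPCs) after knockdown of Qk. Membership went by symbol, as those genes whose name is Rab followed by a number and at most a letter and a further digit. This set and its compartment groups were chosen with earlier results of these data known. This gave 57 Rab genes of 23038 genes listed, each with its own identifier. mOPCs give rise to the myelinating oligodendrocytes (OLs), and the study used them as a nonneuronal lineage that makes all isoforms of the Qki RNA-binding proteins. The cells were isolated from mouse embryos by immunopanning and transfected with control siRNA (siNC, 3 libraries) or with siRNA for the Qk gene (siQk, 3 libraries), and polyadenylated RNA was collected 72 h later. No strain, genotype or transgene is named for either group. The labels call the 3 libraries of a group biological replicates. The siQk group was transfected with 3 different siRNAs and the sources do not state which library received which, so that the spread within siQk may hold differences between siRNAs.

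Rab proteins cycle between a GDP-bound form, held in the cytosol by GDP dissociation inhibitors (GDIs), and a GTP-bound form on membranes. Escort proteins and a geranylgeranyl transferase add the lipid anchor, guanine nucleotide exchange factors switch a Rab on, and GTPase activating proteins switch it off. In the GTP-bound form each Rab recruits effectors such as tethers, motors and lipid kinases or phosphatases, and each compartment of the secretory and endocytic pathways carries its own set of Rabs. In OL lineage cells, these routes carry myelin proteins and lipids to and from the plasma membrane.

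The Qk transcript checked the labels. Its RPKM, the tag number after division by the exon length and by all tags of the library, was 209, 206 and 163 in siNC and 51.3, 76.6 and 36.2 in siQk. The groups did not overlap, and siQk replicate 3 was lowest. The log2 fold change was -1.98 ± 0.28 (SE) with an adjusted p of 0.00311 in edgeR's quasi-likelihood test, and here and below fold changes are siQk over siNC. Library totals ranged from 58166490 to 141045937 tags. TMM factors, which correct for composition, were 0.899 to 0.987 in siNC and 1.04 to 1.07 in siQk. RPKM values carry no such factor, and over all tested genes their ranges lay wholly higher in siQk for 41.9% and wholly lower for 16.4%. Markers of the OL lineage moved with the groups. The summed RPKM of 10 myelinating OL markers was 2681 to 5026 in siNC and 1149 to 1853 in siQk, 7 of 9 tested members fell, and Aspa was near 0. That of 10 OPC markers was 1072 to 1158 in siNC and 1317 to 1482 in siQk, with 4 of 10 members called higher and Lhfpl3 lower. Of 9 astrocyte markers tested, 4 fell (Gfap, Slc1a3, Slc1a2, Aldh1l1) and Sox9 rose, with sums of 299 to 419 and 297 to 321. Of 9 neuron markers tested, 3 rose (Snap25, Nefl, Syp) and Slc17a6 was listed at 0, with sums of 141 to 212 and 114 to 163. Microglial markers summed to 5.84 or less in every library, with C1qa and C1qb listed at 0 and P2ry12, 1 of 2 tested, called lower, and fibroblast and vascular markers to 5.10 or less, with Cldn5 listed at 0. Over all tested genes, 17.2% were called lower and 13.8% higher by the rule given below. In bulk RNA, fewer cells of a type and less RNA per cell cannot be told apart, and the part of these marker shifts in the Rab results was not tested.

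Of the 57 Rab genes, 48 passed the filter on low counts and were tested. The other 9 (Rab3b, Rab17, Rab19, Rab20, Rab25, Rab26, Rab27a, Rab37 and Rab38) lay at or below 0.301 RPKM in every library. Changes were called where P was under 0.01 and the FDR under 0.1. By this rule 17 Rab transcripts (35.4% of those tested) changed, against 31.0% of the 12505 genes tested, so that the share of changed genes was near the background. The directions were unequal. There were 15 Rab transcripts that fell (31.2%, against 17.2% of all tested genes) and 2 that rose (4.17%, against 13.8%). The median log2 fold change of the Rab genes was -0.13, against 0.01 over all tested genes. Among well expressed genes, those with an average logCPM over 4, 15 of 35 Rab transcripts were called, 14 lower and 1 higher. Of all 8571 such genes 32.7% were called, 18.9% lower and 13.9% higher. With library sizes alone in place of TMM factors, the median of all genes moved to 0.16, that of the Rab genes to 0.02, and the calls to 13 lower and 7 higher, so that 65.0% of Rab calls were lower in place of 88.2%.

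**Figure D1:**
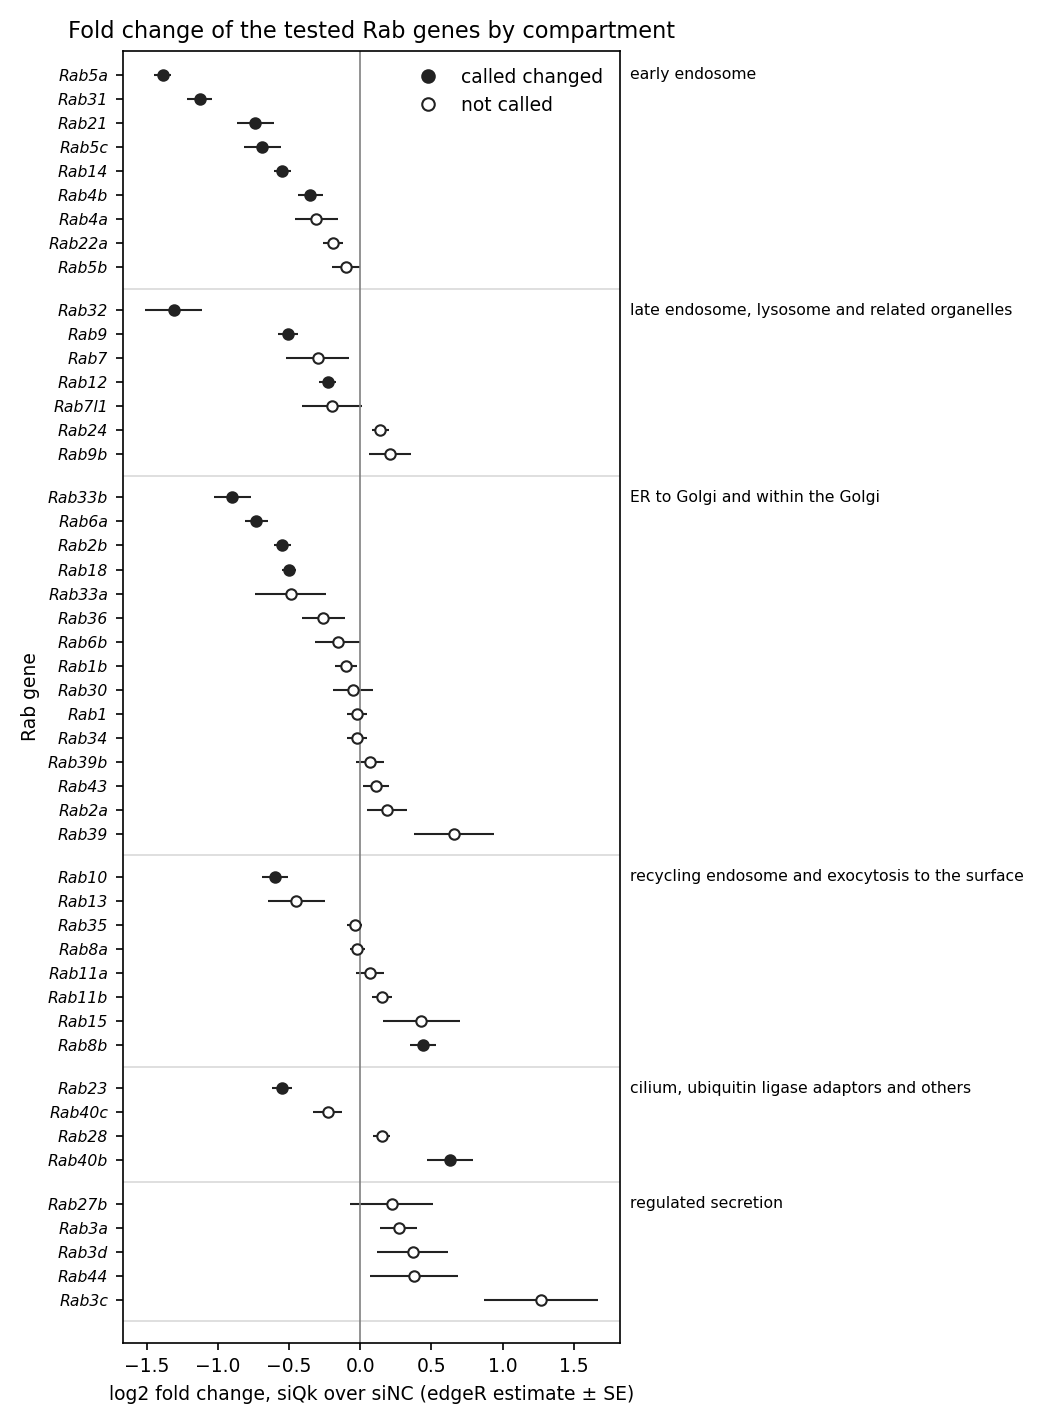
Log2 fold change (siQk over siNC, edgeR estimate with its SE as the bar) of the 48 tested Rab genes, grouped by the compartment each Rab works on; filled points were called changed and open points were not. All 9 early endosome members lie below 0, from -1.39 for Rab5a to -0.10 for Rab5b (0.05 with library sizes alone). The 5 tested regulated secretion members lie above 0 and none of them was called, while 4 scarce members of that group were not tested.

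The early endosome group held the Rabs of uptake and first sorting. Of its 9 tested members 6 fell (66.7%, against 17.2% of all tested genes) and none rose. The group's median log2 fold change was -0.55. Its summed RPKM was 730, 759 and 742 in siNC and 491, 486 and 511 in siQk. The sums of the groups did not overlap. Whether this group differed from the other compartments was not tested.

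Rab5a encodes the GTPase that drives fusion of endocytic vesicles with early endosomes and the maturation of these endosomes. It lies on the plus strand at chr17:53479234-53507680 (GRCm38, the assembly of mm10). Its RPKM was 102, 107 and 104 in siNC and 42.7, 46.5 and 43.7 in siQk. Both groups were tight and far apart. The log2 fold change was -1.39 ± 0.06 (adjusted p = 0.000234), the lowest value among the tested Rab genes, and it lay between -1.41 and -1.24 over all alternative fits. Rab5c, a paralogue with an overlapping role, is on the minus strand at chr11:100715009-100738215 and had RPKM values of 194, 177 and 150.2 in siNC and 121, 113 and 126 in siQk. It was the most abundant paralogue in every library and its groups did not overlap. Its log2 fold change was -0.69 ± 0.13 (adjusted p = 0.00843). The remaining paralogue, Rab5b, had 20.2, 23.9 and 18.7 RPKM in siNC and 21.9, 22.5 and 20.6 in siQk. These ranges overlapped, and its log2 fold change of -0.10 ± 0.10 did not pass the test (adjusted p = 0.447) and became 0.05 with library sizes alone. Rab5b shares 10.5% of its 75-base words with Gm13991, and Rab5a shares 6.41% with Pp2d1. How many tags came from those genes was not measured.

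Qki proteins are known to bind ACUAAC and ACUAAU elements in RNA, so the longest annotated protein-coding 3'UTR of each Rab gene was searched on its sense strand for ACTAAC and ACTAAT in DNA letters. The 3'UTR of Rab5a (1251 nt) held 3, at chr17:53506740-53506745, chr17:53507165-53507170 and chr17:53507491-53507496 on the plus strand, that of Rab5c (1038 nt) held 1, at chr11:100715856-100715861 on the minus strand, and that of Rab5b (2355 nt) held none. Of 2793 3'UTRs within 20% of the length of that of Rab5a, 1.04% held 3 or more, and 29.4% of 2717 near the length of that of Rab5c held at least 1. The windows are shown because these 3 paralogues had different fold changes. They were read from GENCODE M21 transcripts, with the motif in capitals and 9 bases on either side. Over all tested genes with a 3'UTR, 4249 of 11817 held at least 1. A match describes these letters and no more.
Rab5a, first: ttcaaaattACTAATgtatgcttt
Rab5a, second: agtcagtgcACTAACaattatgta
Rab5a, last: gtatattgcACTAATtattttagg
Rab5c: tgtacaaatACTAATtcaatttta

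Rab31 and Rab22a are close paralogues that act between the trans-Golgi network and early endosomes. Rab31 (minus strand, chr17:65651729-65772752) had 127, 156 and 168 RPKM in siNC and 78.8, 72.2 and 77.6 in siQk. The groups did not overlap, and siNC replicate 1 was the lowest of its group. The log2 fold change was -1.13 ± 0.09 (adjusted p = 0.00072), and it lay between -1.20 and -0.98 over the alternatives. Rab22a (plus strand, chr2:173659760-173707343) stayed at 26.7 to 31.3 RPKM in siNC and 26.8 to 28.8 in siQk. These ranges overlapped, and the log2 fold change of -0.19 ± 0.07 did not pass the test (adjusted p = 0.0692). Rab31, which fell, held fewer motifs than Rab22a, and whether motifs bear on fold changes was not tested. The 3'UTR of Rab31 (2677 nt) held 2 motifs, at chr17:65652196-65652201 and chr17:65651746-65651751 on the minus strand, and 25.9% of 3'UTRs of like length held 2 or more. That of Rab22a (6224 nt) held 6, and 3.85% of 3'UTRs of like length held 6 or more. The exon length behind the Rab22a tag numbers was 1960 bases, shorter than this 3'UTR, so some of these motifs may lie outside the counted exons. The first 2 of them are shown, at chr2:173702312-173702317 and chr2:173702351-173702356 on the plus strand.
Rab31, first: atcttgcagACTAACctgcatcct
Rab31, second: atgattcctACTAATaaatatttt
Rab22a, first: tgcttgtgtACTAACagcagctct
Rab22a, second: ctctaccttACTAACagcggctct

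The early endosome group held 4 further tested members, of which 3 fell. Rab21, which carries integrins through endosomes, had 64.5, 70.4 and 60.5 RPKM in siNC and 35.8, 47.3 and 47.0 in siQk. The groups did not overlap, siQk replicate 1 was lowest, and the log2 fold change was -0.74 ± 0.13 (adjusted p = 0.00603). Rab14, which works between endosomes and the Golgi, had 107, 115 and 115 RPKM in siNC and 85.4, 87.1 and 82.9 in siQk. The spread within its groups was small beside the gap between them, and the log2 fold change was -0.55 ± 0.06 (adjusted p = 0.0012). The fast recycling Rabs were closer to the test's limit. Rab4b had 52.6, 56.9 and 63.0 RPKM in siNC and 49.4, 45.5 and 55.4 in siQk, so that its ranges overlapped. Its log2 fold change of -0.35 ± 0.09 (adjusted p = 0.0269) was no longer called in the fits that left out any 1 of the siNC libraries (-0.37, -0.36 and -0.30) or siQk replicate 1 (-0.33) or 2 (-0.27), with upper quartile factors (-0.29) or with library sizes alone (-0.20), and 65.0% of its exon bases also lie in Gm21983, a gene model on the same strand. Rab4a was not called, at -0.31 ± 0.15 (adjusted p = 0.144).

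**Figure D2:**
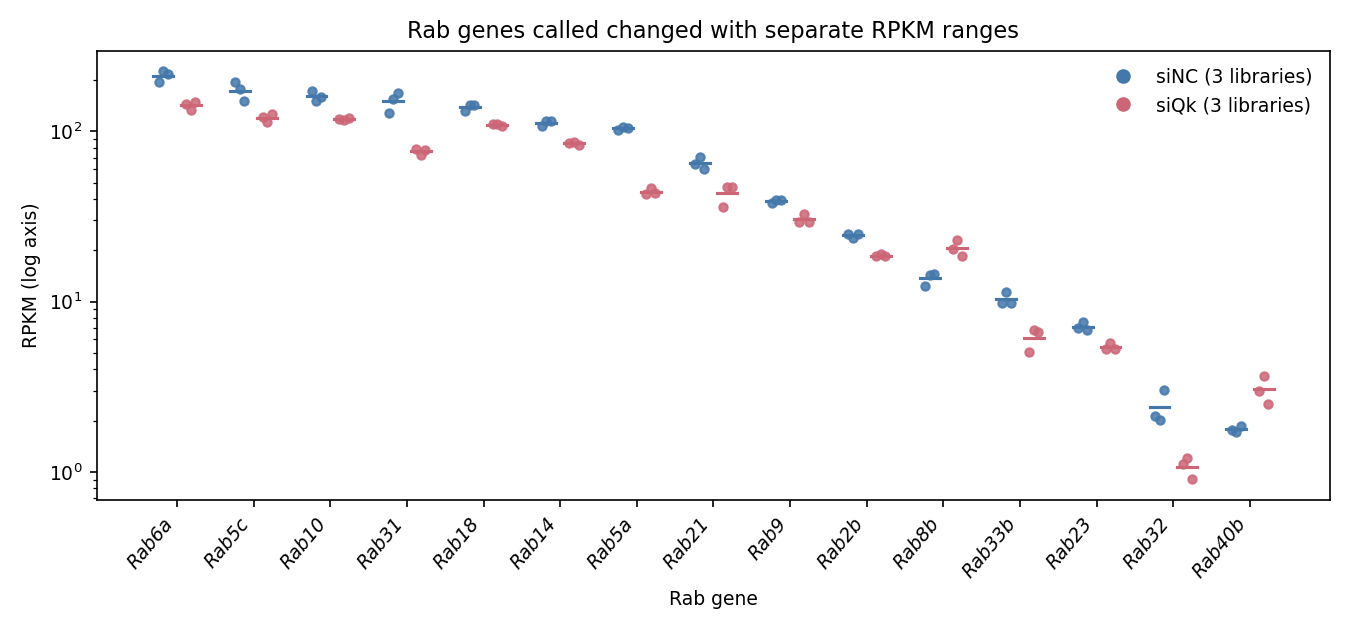
RPKM on a log axis of the 15 Rab genes that were called changed and whose ranges did not overlap between groups, in order of their mean in siNC; points are single libraries (3 siNC, 3 siQk) and the short lines are group means. The siQk points lie below the siNC points for 13 genes, with the widest gap for Rab5a (104 against 44.3 RPKM on average) and Rab32, and above them for Rab8b and Rab40b. Among all 48 tested Rab genes, called or not, the ranges lay wholly lower in siQk for 13 and wholly higher for 16. Over all tested genes these shares were 16.4% and 41.9%.

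In the late endosome, lysosome and related organelles group, 3 of 7 tested members fell (42.9%, against 17.2% of all tested genes). None rose, against 13.8% of all tested genes, and the group's median log2 fold change was -0.23. Rab32, which acts in the formation of lysosome-related organelles, was scarce, with 2.14, 2.01 and 3.04 RPKM in siNC and 1.11, 1.20 and 0.904 in siQk. The groups did not overlap, and its log2 fold change of -1.31 ± 0.20 (adjusted p = 0.00394) was the second lowest of the Rab genes. Rab9, which returns cargo from late endosomes to the trans-Golgi network, had 38.1, 39.6 and 39.4 RPKM in siNC and 29.5, 32.8 and 29.3 in siQk. The siNC libraries were nearly equal, and the log2 fold change was -0.51 ± 0.07 (adjusted p = 0.00256). Rab12, which directs membrane receptors from recycling endosomes to lysosomes, had 58.4, 63.1 and 68.8 RPKM in siNC and 62.0, 59.7 and 58.8 in siQk. These ranges overlapped. Its log2 fold change of -0.23 ± 0.06 (adjusted p = 0.0234) was no longer called with library sizes alone (-0.08), with upper quartile factors (-0.17), with no filter on low counts (-0.20) or with the replicate block (-0.23). The call also ended without siNC replicate 3 (-0.19) and without siQk replicate 1 (-0.25), 2 (-0.21) or 3 (-0.22). The 3'UTR of Rab12 (1178 nt) held 2 motifs, at chr17:66495572-66495577 and chr17:66494547-66494552 on the minus strand, and 6.67% of 3'UTRs of like length held 2 or more. Its windows are shown because its fold change was small.
Rab12, first: cagctatacACTAACttgtaaata
Rab12, second: tctttctacACTAATgaagtgcaa

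Rab7, the main GTPase of late endosomes and of their fusion with lysosomes, turned on 1 library. Its RPKM was 212, 210.3 and 122 in siNC and 164, 169.5 and 160.3 in siQk. siNC replicate 3 lay below all siQk libraries and the other siNC libraries above them. With all libraries the log2 fold change was -0.30 ± 0.22 (adjusted p = 0.321), and without siNC replicate 3 it was -0.54 and called (adjusted p = 0.00343). A processed pseudogene and an opposite-strand gene share 13.8% of its 75-base words, and how many tags came from them was not measured. The remaining members (Rab7l1, Rab9b and Rab24) were not called.

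Of the 15 tested Rabs of ER to Golgi and intra-Golgi transport, 4 fell (26.7%) and none rose. Over all tested genes 17.2% fell, and the median log2 fold change of this group was -0.10. Rab6a, which acts in retrograde traffic to and through the Golgi, had the highest mean of all Rabs in siNC, with 195, 226 and 216 RPKM, and had 145, 134 and 148 RPKM in siQk. The groups did not overlap, and the log2 fold change was -0.73 ± 0.08 (adjusted p = 0.00133). Over all annotated Rab6a transcripts, 19.0% of exon bases lie under the opposite-strand gene Mrpl48. The Rab6a transcript with the longest 3'UTR shared 0.236% of its 75-base words with other genes. Rab33b, a Golgi Rab that also binds the autophagy protein Atg16l1, had 9.76, 11.4 and 9.75 RPKM in siNC and 5.07, 6.78 and 6.59 in siQk. Its ranges did not overlap, and the log2 fold change was -0.90 ± 0.13 (adjusted p = 0.00365), with 18.7% of its exon bases under the opposite-strand gene model Gm38160. Rab18, a Rab of the ER and of lipid droplets, had 131, 142 and 142 RPKM in siNC and 109.8, 111 and 107 in siQk. The siQk libraries were within a few RPKM of each other, and the log2 fold change was -0.50 ± 0.05 (adjusted p = 0.00149). Rab2b, a Golgi Rab, had 24.9, 23.7 and 24.9 RPKM in siNC and 18.5, 19.0 and 18.4 in siQk. Its log2 fold change was -0.55 ± 0.06 (adjusted p = 0.00188), but 64.0% of its exon bases lie under opposite-strand genes, Tox4 among them, and without strand reads of these genes cannot be told apart from its own. Its paralogue Rab2a, which is needed for transport between ER and Golgi, had 171, 165 and 128 RPKM in siNC and 204.5, 189.6 and 199 in siQk. siNC replicate 3 was lowest here too, and the log2 fold change of 0.19 ± 0.14 did not pass the test (adjusted p = 0.305) and was 0.05 without that library. Rab1 and Rab1b, the main Rabs of ER export, were not called, at 105 to 111 RPKM in siNC and 116 to 120.0 in siQk for Rab1 and at 96.7 to 102 and 94.7 to 111 for Rab1b. Rab33a, the paralogue of Rab33b, varied widely within groups, from 77.9 to 122 RPKM in siNC and from 56.2 to 93.9 in siQk, and its log2 fold change of -0.49 ± 0.25 did not pass the test (adjusted p = 0.17).

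Of 8 tested Rabs of recycling endosomes and transport to the cell surface, 1 fell and 1 rose, with a median log2 fold change of 0.02. Each is 12.5% of the group, against 17.2% of all tested genes that fell and 13.8% that rose. Rab10, which brings vesicles to the plasma membrane, had 174, 150.2 and 160.2 RPKM in siNC and 119, 117 and 119.8 in siQk. The siQk libraries were nearly equal and all lower than the siNC libraries, with a log2 fold change of -0.60 ± 0.09 (adjusted p = 0.00456). Rab8b, a Rab of polarised exocytosis, rose from 12.4, 14.4 and 14.5 RPKM in siNC to 20.4, 23.1 and 18.5 in siQk. The groups did not overlap, and the log2 fold change was 0.44 ± 0.09 (adjusted p = 0.00971), called in all 14 alternative fits. Its more abundant paralogue Rab8a was not called, at 51.7 to 56.2 RPKM in siNC and 59.0 to 59.8 in siQk. Rab11a and Rab11b, the Rabs of the slow recycling endosome, were not called either, at 57.6 to 71.0 and 71.8 to 79.7 RPKM for Rab11a and at 4.73 to 5.38 and 6.13 to 6.35 for Rab11b. For Rab8a, Rab11a and Rab11b the RPKM ranges lay wholly higher in siQk, as they did for 41.9% of all tested genes.

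None of the 5 tested Rabs of regulated secretion was called, where 31.0% of all tested genes were. The median log2 fold change of these 5 was 0.37. This depended on the filter on low counts. Rab3b and Rab37, scarce members of this group, were not tested. Both were called lower with no filter on low counts and with another low-count filter. Rab3a, the Rab of synaptic and other secretory vesicles, was the only abundant member, with 51.7, 45.0 and 52.1 RPKM in siNC and 65.4, 56.4 and 77.1 in siQk. Its ranges did not overlap, but the log2 fold change of 0.27 ± 0.13 did not pass the test (adjusted p = 0.155). Rab3c had 0.229, 0.454 and 0.175 RPKM in siNC and 0.705, 0.556 and 1.03 in siQk. All siQk libraries were higher, and its log2 fold change of 1.27 ± 0.40 was not called, since its P missed the cutoff (adjusted p = 0.045 in edgeR's quasi-likelihood test), and was called in 4 of 14 alternative fits, DESeq2 among them. Rab27b, an exosome and granule Rab, had 1.35, 1.49 and 3.04 RPKM in siNC and 2.17, 2.77 and 2.64 in siQk. siNC replicate 3 was higher than every siQk library, so that the log2 fold change was 0.22 ± 0.29 with it (adjusted p = 0.565) and 0.65, and called, without it. In the last group, Rab23, an inhibitor of Hedgehog signalling linked to cilia, had 6.95, 7.56 and 6.84 RPKM in siNC and 5.26, 5.71 and 5.23 in siQk. Its groups did not overlap, and the log2 fold change was -0.55 ± 0.07 (adjusted p = 0.00287). Rab40b, which joins a Cullin5 ubiquitin ligase through its SOCS box, had 1.76, 1.71 and 1.85 RPKM in siNC and 3.00, 3.64 and 2.50 in siQk. All siQk libraries were higher, with a log2 fold change of 0.63 ± 0.16 (adjusted p = 0.0234). The Rab40b call ended in the fits without siNC replicate 1 (0.66), 2 (0.59) or 3 (0.63), without siQk replicate 1 (0.64) or 2 (0.49), and with the replicate block (0.61).

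Paralogues of 1 subfamily share much of their function, so each library's summed RPKM was divided among them, which does not depend on library scaling. The summed Rab5 level was 316, 308 and 273 RPKM in siNC and 186, 182 and 191 in siQk. Within it the share of Rab5a was 35.1% ± 2.96 (SD, n = 3) in siNC and 23.8% ± 1.49 in siQk, that of Rab5b was 7.01% ± 0.712 and 11.7% ± 0.816, and that of Rab5c was 57.9% ± 3.19 and 64.5% ± 2.19. None of these ranges overlapped between groups. The pair Rab22a and Rab31 summed to 154, 184 and 199.7 RPKM in siNC and 107, 99.0 and 106 in siQk, and the share of Rab31 was 84.0% ± 1.15 in siNC and 73.2% ± 0.462 in siQk. Rab22a held a larger part of the pair in every siQk library than in any siNC library. Rab6a held 89.6% ± 1.38 of the Rab6 pair in siNC and 85.3% ± 1.41 in siQk, Rab2b held 13.8% ± 2.11 and 8.62% ± 0.427 of the Rab2 pair, and Rab8b held 20.2% ± 0.775 and 25.8% ± 2.27 of the Rab8 pair, all without overlap. The shares within the Rab1, Rab4, Rab11 and Rab33 pairs overlapped between groups. Ranges without overlap can come with a small shift, as for Rab3a, which held 97.3% ± 0.509 of the Rab3 subfamily in siNC and 96.8% ± 0.0463 in siQk. Rab3b, scarce in every library, did not overlap either, and Rab3c and Rab3d did. The smallest p of an exact two-sided permutation test between groups of 3 is 0.1, so these shares are given as values and ranges. The sum over all Rab genes was 2503, 2523 and 2382 RPKM in siNC and 2134, 2092 and 2202 in siQk.

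**Figure D3:**
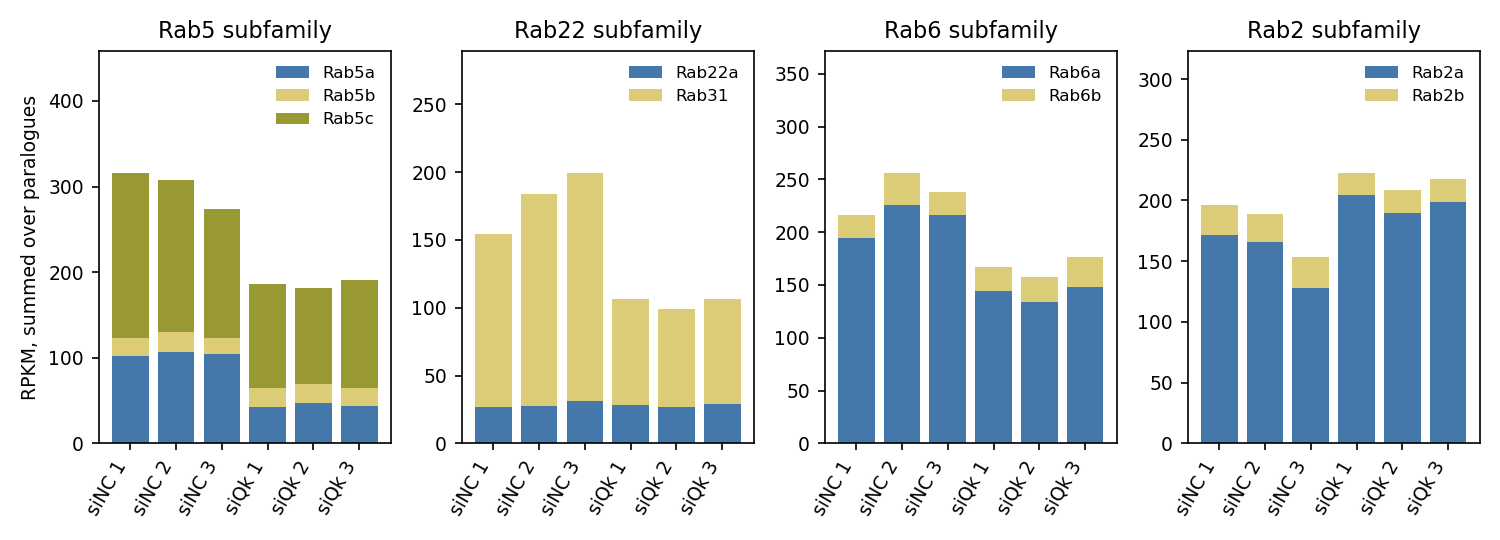
RPKM per library of the paralogues of 4 Rab subfamilies, stacked so that the bar height is the subfamily sum. The Rab5, Rab22 and Rab6 sums are lower in all siQk libraries (Rab5: 299 against 186 RPKM on average, without TMM factors), mostly through Rab5a and Rab5c, Rab31 and Rab6a, and the Rab2b part of the Rab2 bars is smaller in siQk.

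Over all Rab genes, motifs were counted in the same way, as a description of the annotated 3'UTRs. Of the 15 Rab transcripts that fell, 10 (66.7%) held at least 1 ACTAAC or ACTAAT, against 52.9% of 2073 genes that fell among all tested genes with a 3'UTR. Of the 31 that were not called, 12 (38.7%) held at least 1, against 33.5% of 8084. Per kilobase, the Rab transcripts that fell held 0.536 motifs and those not called 0.371, and over all tested genes these values were 0.495 and 0.32. The motif count did not order the Rab genes by fold change. Rab6a, Rab10, Rab21, Rab2b and Rab4b fell with none, Rab22a and Rab30 were not called with 6 and 9, and Rab8b rose with 1, near the end of its 3'UTR (4055 nt). The counted exon lengths of Rab22a (1960 bases) and Rab30 (2005 bases) were shorter than their 3'UTRs (6224 and 8596 nt). Much of these 3'UTRs, and motifs in them, may therefore belong to transcript ends that were not counted. The same limit holds for transcripts that fell. Rab18, with 1 motif, had 2275 counted bases and a 3'UTR of 5774 nt. Rab21, with none, had 1824 counted bases and a 3'UTR of 3688 nt. Rab23 fell with 3 motifs in 3172 nt, and Rab32 fell with 1 in 1300 nt.
Rab32: caaatgcaaACTAATgtttacagc
Rab8b: atgccaagaACTAACagaactttg

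The proteins that load, switch and read Rabs were described from a list of 144 genes, of which 142 matched the files and 129 were tested. Of these, 34 fell (26.4%, against 17.2% of all tested genes) and 9 rose (6.98%, against 13.8%), with a median log2 fold change of -0.11. In the prenylation and GDI class, 4 of 8 tested members fell, none rose, and all 8 fold changes were below 0, with Rabggtb and Rabif above 0 (0.08 and 0.10) with library sizes alone. The Rab escort proteins Chml (-1.04 ± 0.12, adjusted p = 0.0019) and Chm (-0.71 ± 0.09, adjusted p = 0.00204), which present new Rabs to the transferase, fell most. Chml had 8.28, 7.23 and 6.99 RPKM in siNC and 4.42, 4.16 and 3.62 in siQk, and Chm had 23.3, 29.3 and 27.5 in siNC and 17.7, 19.9 and 16.8 in siQk. Neither overlapped between groups. Rabac1, a receptor for prenylated Rabs, fell by 0.37 on the log2 scale (adjusted p = 0.0111), and Gdi2, a GDI, fell by 0.27 with overlapping RPKM ranges (adjusted p = 0.0228). The transferase subunits Rabggta (adjusted p = 0.0406, with P above its cutoff) and Rabggtb (adjusted p = 0.451) were not called, nor was Rabif (adjusted p = 0.668). The Gdi2 call ended without siNC replicate 2 (-0.27) or 3 (-0.25) or siQk replicate 2 (-0.26) or 3 (-0.24), with the replicate block (-0.27), with upper quartile factors (-0.21) and with library sizes alone (-0.12). That of Rabac1 ended without siQk replicate 1 (-0.35) and with library sizes alone (-0.22).

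Of 42 tested exchange factors, 9 fell (21.4%) and 4 rose (9.52%), with a median of -0.01. These shares were near those of all tested genes, of which 17.2% fell and 13.8% rose. The lowest among those called were Trappc2 (-0.75 ± 0.12), a subunit of the TRAPP complexes that activate Rab1, and Dennd4a (-0.68 ± 0.10), which activates Rab10. The highest among those called, above the expression limit of the naming rule, were Madd (0.56 ± 0.08), which activates Rab3 and Rab27 proteins, and Dennd5b (0.37 ± 0.08). Of 38 GTPase activating proteins, 10 fell (26.3%) and 3 rose (7.89%), with a median of -0.11. Usp6nl, known to act on Rab5 (RN-tre), had 13.3, 14.2 and 11.7 RPKM in siNC and 6.43, 6.86 and 7.05 in siQk, a log2 fold change of -1.10 ± 0.10 (adjusted p = 0.000913). It fell together with Rab5a and Rab5c. Tbc1d15, known to act on Rab7, had 37.9, 39.2 and 39.6 RPKM in siNC and 21.5, 23.6 and 20.9 in siQk, a log2 fold change of -0.98 ± 0.06 (adjusted p = 0.000413). Grtp1 (0.80 ± 0.16) and Tbc1d10a (0.56 ± 0.07) rose most. Of 41 effectors, 11 fell (26.8%) and 2 rose (4.88%), with a median of -0.22. Osbpl1a, a cholesterol-sensing effector of Rab7, had 50.4, 46.8 and 32.0 RPKM in siNC and 14.2, 13.3 and 17.0 in siQk. It had the lowest log2 fold change of the list, -1.70 ± 0.21 (adjusted p = 0.00215). Among the effectors that were called, Optn, which binds Rab8, came next (-0.65 ± 0.14), and Ocrl (0.34 ± 0.08), a phosphatidylinositol phosphatase that binds several Rabs, and Rab11fip3 (0.28 ± 0.06), which binds Rab11, rose. Without siQk replicate 1, Dennd5b (0.37), Optn (-0.62) and Ocrl (0.32) were no longer called, and without siQk replicate 3, Dennd5b (0.34) and Ocrl (0.34) were not, nor was Ocrl with the replicate block (0.34).

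**Figure D4:**
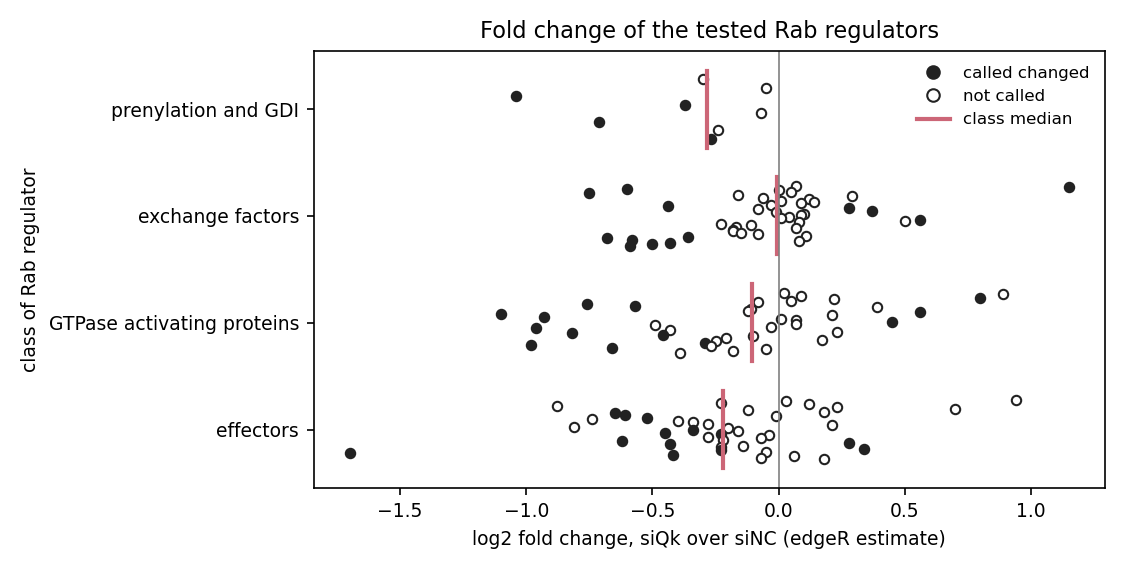
Log2 fold change (siQk over siNC, edgeR estimate) of the 129 tested Rab regulators in 4 classes; filled points were called changed, the red bar is the class median, and the height of a point within its class follows its expression, for legibility. The prenylation and GDI members all lie below 0 (median -0.29; Rabggtb and Rabif lie above 0 with library sizes alone), and the lowest point is Osbpl1a among the effectors at -1.70.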

How the data were processed

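RNA was measured in 6 mOPC libraries, 3 siNC and 3 siQk. Per the labels and methods, the authors made poly-A libraries with the TruSeq RNA kit v2, which keeps no strand, sequenced paired ends, used OLego for alignment to mm10 and Quantas for gene levels (versions, gene annotation and strand setting are not given in the sources used here). The authors deposited, per gene, an estimated count (the tag number, with decimals in 23.1% to 26.1% of genes), the exon length in bases and the RPKM, which recomputing from the tag number, length and library total returned. From these, the estimated counts were rounded, genes with an average logCPM over 0 kept (12505), and fitted by edgeR's quasi-likelihood method with TMM factors (R 4.3.3, edgeR 4.0.16, limma 3.58.1), the group as the only term, and the Benjamini-Hochberg adjustment over all genes tested. SE was derived from the fold change and its F statistic. The step was checked on simulated counts. Replicates differed by more than sampling noise and each counts as 1. Between pairs of replicates, chi-square per degree of freedom was 233 to 405 in siNC and 44.7 to 91.2 in siQk. Rn45s held 3.11% of the tags of siNC replicate 1, and 0.169% to 0.389% in the other libraries.

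The members, compartment groups, regulators and markers were chosen with earlier results of these data known. The naming rule gave every Rab gene by group, with each library's value for called members without overlap, for Rab12 and for the 5 highest in siNC (Rab6a, Rab7, Rab5c, Rab10, Rab2a), the prenylation and GDI genes, and per regulator class the 2 highest and 2 lowest called fold changes above an average logCPM of 3. Not every gene under this rule is reported here. Other members given by library were chosen after their values were seen. Positions, 3'UTRs and 75-base words shared between genes are from GENCODE M21 (GRCm38), to which all 57 Rab genes matched. Alternatives were DESeq2 1.42.0, other scalings, filters and cutoffs, a replicate block, thinning to the smallest library, and leaving out each library. The cutoffs were P below 0.01 and FDR below 0.1.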

Additional observations from a re-analysis of the deposited data

How the results depend on the processing

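Qk and 14 of the 17 Rab calls were called in all 14 alternative fits, and the exceptions were Rab4b (7 fits), Rab12 (6) and Rab40b (8). The number of Rab transcripts called was 14 to 20 in all alternatives but the cutoff of FDR below 0.05 with a log2 fold change beyond 1 in size, which left 4 (3 lower: Rab5a, Rab32, Rab31, and 1 higher: Rab3c), 4 regulators (3 lower, 1 higher) and 946 of all genes (620 lower, 326 higher). With library sizes alone, 7 Rab genes, 14 regulators and 2989 of all genes were higher and 1365 of all genes lower, and Rab5b reversed to 0.05. Other Rabs not called and near 0 also turned positive in an alternative fit. Examples are Rab1 (-0.02, at most 0.13), Rab1b (-0.10, at most 0.05) and Rab8a (-0.02, at most 0.13). The replicate numbers did not pair the samples (correlations of deviations -0.05, -0.15 and -0.34), and with the replicate block 15 Rab genes were called (14 lower, 1 higher), 36 regulators and 2796 of all genes. Leaving out 1 library in turn gave 14 to 17 Rab calls (13 to 14 lower, 1 to 3 higher), 32 to 46 regulator calls (28 to 37 lower, 4 to 10 higher) and 2478 to 3704 calls among all genes (1470 to 2094 lower, 1008 to 1610 higher), with the lowest values without siQk replicate 1. The causes were not tested. Of the subfamily share values, 48 moved by more than 1 SD, nearly all with tag numbers in place of RPKM, which leave exon length in the share, and 16 mean RPKM values did so after division by the TMM factor. Leaving out 1 of 3 libraries cannot move a mean that far, so that alternative says nothing about these values. Low levels limited the Rabs below 1 RPKM, of which 9 were not tested.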
